A study of Saccharomyces cerevisiae with 12 samples.

Results

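ETS2, the 3′ external transcribed spacer, is the last stretch of the 35S rRNA gene of budding yeast. Its members are the positions that the deposited tables annotate as ETS2, 3.08% of all positions of that gene. In assembly R64 it lies on the minus strand at chrXII:460712-460922, directly downstream of the 25S rRNA. Positions are counted below in nt after the last base of 25S, and the first 30 nt were described apart from the remaining positions, called the rest. Native elongating transcript sequencing (NET-seq), which maps the 3′ ends of RNAs that copurify with RNA polymerase I (Pol I), was run on 4 groups of 3 libraries. Yeast received vehicle buffer or 50 μM BMH-21, a small molecule that intercalates into GC-rich DNA and inhibits Pol I, and was treated for 2 min or 16 min. All groups shared 1 strain, called wild type, in which the Pol I subunit RPA135 carries an HA tag and the chromosomal rpa190 deletion is covered by pRS315-RPA190, grown at 30 °C to an OD600 of 0.3. The series was made in biological triplicate.

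Pol I transcribes ETS2 after finishing 25S, and the spacer is removed from the transcript. Rnt1, the yeast RNase III, cuts a stem-loop in ETS2 while Pol I is still transcribing, and it recognises stems capped by a loop of the form AGNN. The cut leaves a free RNA 5′ end on the polymerase side, where the exonuclease Rat1 can enter, and trimming of the upstream RNA then yields the mature 25S 3′ end. T1 is the main Pol I terminator, and Nsi1 and Reb1 are related DNA-binding proteins that can bind beside it. Pol I pauses before this site, and most polymerases leave the template there. A 3′ end read by NET-seq can be the growing end of a transcript or an end left by a nuclease, and these libraries cannot tell them apart.

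The whole of ETS2 is shown because every comparison refers to places in it. Capitals mark, in order, the fragment that the files annotate as cleaved by Rnt1 (nt 16 to 50), T1 (nt 92) and the Reb1/Nsi1 site next to T1 (nt 110 to 120). The letters equal the R64 sequence at every position, and both annotated copies of ETS2 in that assembly are identical, so reads cannot be assigned to 1 repeat.
ETS2, chrXII:460712-460922, minus strand: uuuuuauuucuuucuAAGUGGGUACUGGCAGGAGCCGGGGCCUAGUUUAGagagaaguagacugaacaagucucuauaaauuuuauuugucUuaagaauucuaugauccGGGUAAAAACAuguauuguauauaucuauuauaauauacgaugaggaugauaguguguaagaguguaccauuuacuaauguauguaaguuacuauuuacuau

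The next sequences are the places that held most of the signal or the clearest peaks, with the peak position in capitals. The first starts 10 nt before the 25S end, and in it nt 14 and 15, the last bases before the Rnt1 fragment, are in capitals.
25S end and nt 1 to 30, chrXII:460893-460932: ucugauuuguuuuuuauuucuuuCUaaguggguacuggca
Rnt1 fragment with nt 33, chrXII:460873-460907: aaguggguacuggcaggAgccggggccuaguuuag
T1 with nt 91 and 92, chrXII:460821-460841: uuuauuuguCUuaagaauucu
nt 57, chrXII:460856-460876: uuagagagaaGuagacugaac
nt 69, chrXII:460844-460864: agacugaacaAgucucuauaa
nt 98, chrXII:460815-460835: ugucuuaagaAuucuaugauc
nt 156, chrXII:460757-460777: uacgaugaggAugauagugug

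The stretch from nt 1 to 13 is almost all U, with 11 U, 1 A and 1 C. An AGNN loop closed by 5 base pairs, with G-U pairs allowed, was searched for on the transcribed strand and matched at nt 25 to 38, inside the Rnt1 fragment, and at nt 164 to 177. The match at nt 25 to 38 reads ctggcAGGAgccgg in DNA letters, with the loop in capitals, and nt 33 is the last base of that loop. Such a match is common, being present on 1 given strand in 9.16% of the 57203 windows of the length of ETS2 in the nuclear genome. The Reb1 motif TTACCCG, searched on both strands, matched once, as cgggtaa at nt 109 to 115, starting 1 nt before the annotated site. That motif was present in 1.32% of the same windows.

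The deposited values, in RPM, are read ends at each position divided by the sum of that library over the 35S gene and multiplied by 1 fixed factor. They are shares of the 35S signal, so less RNA per cell and a changed share of it cannot be told apart. Dividing by the smallest value of each library gave the reads behind each value. The libraries held 1054374 to 10480384 reads on the 35S gene, of which 1090 to 28716 lay in ETS2 and 239 to 8424 in the rest of ETS2. Between 8 and 126 positions of the rest had 0 reads, and a count of 0 allows up to 3 reads, or 0.286 to 2.85 RPM depending on the library. Intervals of this kind cover counting error only. At 16 min, vehicle replicate 2 stood apart, with 96 positions of the rest at 0 reads from 2178796 reads in all, and Spearman coefficients across the rest of 0.62 and 0.56 with the other vehicle libraries. Those coefficients lay between 0.90 and 0.92 for vehicle at 2 min and between 0.34 and 0.38 for BMH-21 at 16 min. They run across positions, which are not replicates.

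In vehicle-treated cells the signal fell steeply within ETS2, from a mean of 129 RPM per nt over the first 30 nt to 18.7 over nt 31 to 60 and 8.51 over nt 61 to 90 at 2 min. It came back to 17.0 RPM per nt over nt 91 to 120, the stretch that holds T1, and lay between 0.951 and 1.85 in the stretches beyond. At 16 min the vehicle profile had the same order up to T1, with 82.2, 12.7, 5.86 and 8.01 RPM per nt over those 4 stretches and 0.331 to 1.33 beyond. The descent was not smooth, since nt 14 and 15 alone held 51.3%, 49.1% and 48.7% of the ETS2 signal of the 3 vehicle libraries at 2 min and 43.1%, 40.7% and 51.5% at 16 min. The first 30 nt as a whole held 72.8% ± 1.6 (SD, n = 3) at 2 min and 71.6% ± 7.1 (SD, n = 3) at 16 min.

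**Figure D1:**
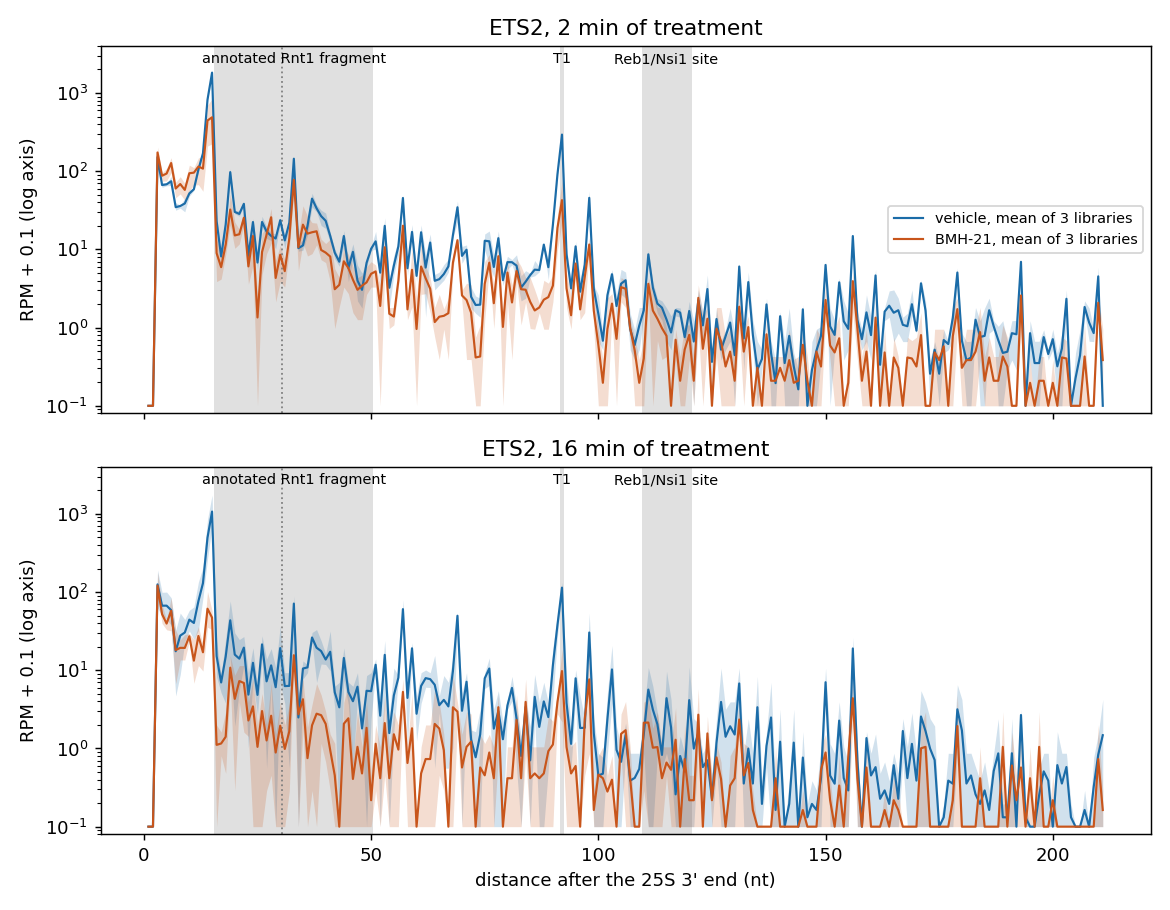
NET-seq signal along ETS2 at 2 min (top) and 16 min (bottom), as RPM + 0.1 on a log axis against the distance after the 25S 3′ end in nt. Lines are means of 3 libraries, bands span the lowest to the highest library, grey marks annotated features and the dotted line ends the first 30 nt. The vehicle mean peaks at nt 15 (1821 RPM at 2 min) and at nt 92 (294 RPM at 2 min), and the BMH-21 mean is lower at both.

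BMH-21 lowered the share of the 35S signal in both parts of ETS2 and lowered the rest more than the first 30 nt. At 2 min the first 30 nt held 0.403%, 0.389% and 0.370% of the 35S signal with vehicle and 0.312%, 0.134% and 0.218% with BMH-21. The rest held 0.137%, 0.149% and 0.147% with vehicle and 0.0717%, 0.0355% and 0.0549% with BMH-21. The groups did not overlap in either part, and the means were 1.75-fold lower in the first 30 nt and 2.68-fold lower in the rest. After 16 min the first 30 nt held 0.189%, 0.154% and 0.397% with vehicle and 0.0474%, 0.0421% and 0.0807% with BMH-21. Vehicle values for the rest were 0.0804%, 0.0815% and 0.104%, against 0.0156%, 0.00713% and 0.0227% with BMH-21. Again no BMH-21-treated library reached a vehicle-treated one, and the means were 4.35-fold and 5.86-fold lower.

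Over both times the mean change of log2 share was -1.47 in the first 30 nt and -2.09 in the rest, lower in 6 of 6 BMH-21-treated libraries than in every vehicle library of the same time (exact permutation test, two-sided, treatment permuted within time, p = 0.005 for each, the smallest that 400 arrangements allow, adjusted p = 0.00875 over 7 measures). Within 1 time, 3 libraries against 3 cannot give a p under 0.1, and both parts had that value at each time. The direction of the first 30 nt belongs to the scaling. Relative to the 4 spacers of the gene together, whose share fell from 5.52% ± 0.49 to 2.35% ± 1.00 (SD, n = 3) at 2 min and from 4.11% ± 0.56 to 0.736% ± 0.184 (SD, n = 3) at 16 min, the first 30 nt were 0.44 higher on the log2 scale over both times (p = 0.03, same exact test) and the rest 0.17 lower (a change of -0.17, p = 0.295). The difference between the change at 16 min and the change at 2 min was -1.17 for the first 30 nt and -1.22 for the rest on the log2 scale (exact permutation of time within treatment, two-sided, p = 0.275 and 0.285, adjusted p = 0.428 for each over 3 measures). This permutation treats the times within a treatment as interchangeable, while the means of both treatments shifted. The mean log2 share of the first 30 nt went from -1.37 to -2.15 with vehicle and from -2.26 to -4.20 with BMH-21. That of the rest went from -2.79 to -3.51 and from -4.27 to -6.20. With such shifts, these p-values cannot decide whether the change differed between the times.

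The ratio of the rest to the first 30 nt, which no scaling of a library can move, fell with BMH-21. As log2 it was -1.55, -1.38 and -1.33 in the vehicle libraries at 2 min and -2.12, -1.91 and -1.99 in the BMH-21 libraries, with no overlap. At 16 min it was -1.23, -0.91 and -1.94 with vehicle and -1.60, -2.56 and -1.83 with BMH-21, and the groups overlapped through vehicle replicate 3. The change was -0.59 at 2 min (p = 0.1), -0.64 at 16 min (p = 0.3) and -0.61 over both times (p = 0.015, adjusted p = 0.021 over 7 measures; exact permutation test, two-sided, n = 6 libraries per treatment). The change over both times was -1.25 without nt 15, the highest position of the first 30 nt, and -0.45 without nt 92, the highest of the rest.

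The distance within which ETS2 signal accumulated was shorter with BMH-21. Every vehicle library reached 50% of its ETS2 signal at nt 15. Each BMH-21 library at 2 min reached it at nt 14, and those at 16 min at nt 12, 8 and 12 (change over both times -2.67 nt, exact permutation test, two-sided, p = 0.005, adjusted p = 0.00875). The distance of 90% at 2 min was 92, 91 and 92 nt with vehicle, at the T1 peak, and 54, 62 and 53 nt with BMH-21. At 16 min it was 90, 92 and 69 nt with vehicle and 92, 57 and 82 nt with BMH-21, which overlap. Over both times the change was -21 nt (p = 0.035, adjusted p = 0.0408, same exact test), and it no longer passed the threshold without any 1 of several libraries. With 95% in place of 90% the change was 1.17 nt, in the other direction (exact permutation test, p = 1).

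**Figure D2:**
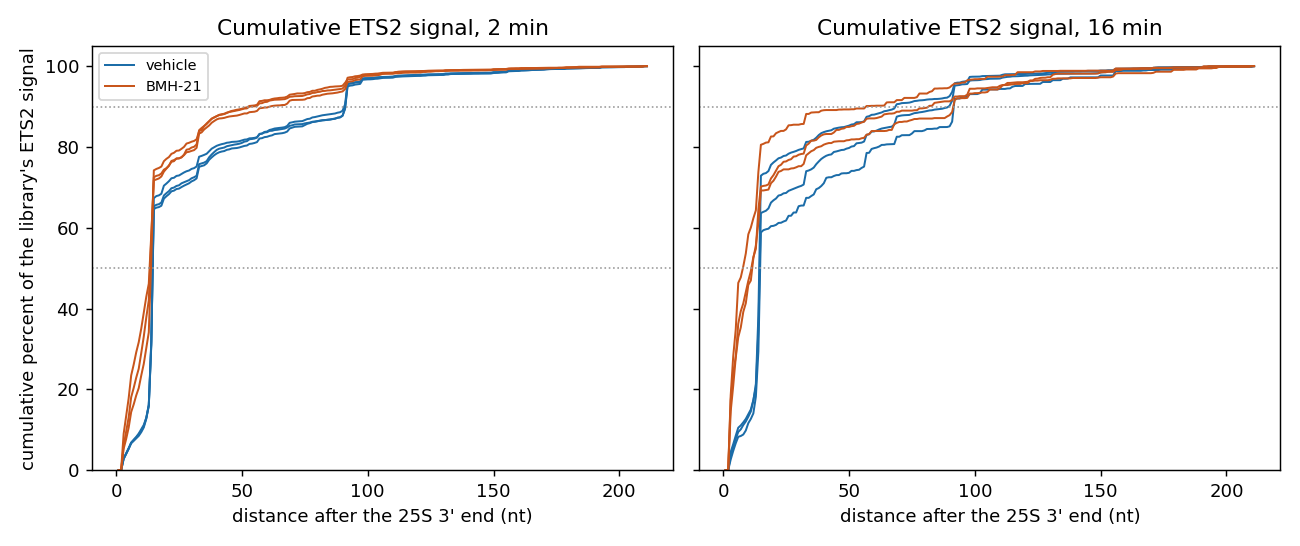
Cumulative percent of the ETS2 signal of each library against the distance after the 25S 3′ end in nt, at 2 min (left) and 16 min (right). Each line is 1 library and dotted lines mark 50% and 90%. Vehicle libraries rise at nt 14 and 15 and step again at nt 92, while the BMH-21 libraries rise earlier. At 2 min the step at nt 92 is smaller in every BMH-21 library than in every vehicle library. At 16 min the treatments overlap there. T1 and the base before it hold 3.71% of the ETS2 signal in BMH-21 replicate 1 and 3.17% in vehicle replicate 3. The other BMH-21 libraries of that time lie below every vehicle library.

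Within the first 30 nt, the U-rich start, taken as a sum, and the pair before the Rnt1 fragment behaved differently. These stretches, and the ratios between them, were chosen after the values were seen and are described without a test. The bases nt 1 and 2, like the last base of 25S, had 0 reads in all 12 libraries. From nt 1 to 13 the summed signal at 2 min was 866, 873 and 823 RPM for vehicle and 1310, 782 and 1147 RPM for BMH-21. At 16 min it was 552, 428 and 1071 RPM for vehicle and 350, 317 and 566 RPM for BMH-21. The groups overlapped at both times. The sum does not show the end of this stretch, which fell about as much as the pair at 16 min. There the log2 fold change by limma was -2.82 at nt 13 and -2.97 at nt 14. Upstream of nt 1, the last 3 bases of 25S held 4356, 4462 and 4550 RPM for vehicle and 7504, 6140 and 7271 RPM for BMH-21 at 2 min. These were higher without overlap at 2 min and overlapped at 16 min. Mature rRNA can enter such libraries, and its part in the values at the 25S end was not tested.

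At nt 14 and 15, by contrast, the sum was 2772, 2639 and 2519 RPM for vehicle and 1538, 433 and 831 RPM for BMH-21 at 2 min. The pair held 1162, 956 and 2584 RPM for vehicle and 85.5, 79.8 and 159 RPM with BMH-21 at 16 min. No library overlapped, and the group means were 2.83-fold lower at 2 min and 14.5-fold lower at 16 min. Relative to nt 3 to 13 of the same library, the pair stood at 3.09 ± 0.09 with vehicle and 0.818 ± 0.321 with BMH-21 at 2 min, and at 2.25 ± 0.15 and 0.259 ± 0.020 at 16 min (mean ± SD, n = 3 each).

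Of the 30 first positions, 28 passed the filter of a mean of at least 1 RPM. Each was tested within a treatment time by limma on log2(RPM + 1), with Benjamini-Hochberg adjustment across every tested position of the gene and a threshold of 0.05. This scale understates the change of low positions. At 2 min 11 of the 28 were called lower and 3 higher, against 23.4% lower and 3.56% higher among all 6746 tested. At 16 min 6 were called lower and 0 higher (0 had an unadjusted p below 0.05, and 0 by edgeR), against 11.7% lower and 0.104% higher among all positions tested at that time. The 2-min calls in the first 30 nt rest on each vehicle library, since with any 1 of them left out none of these positions was called. Without vehicle replicate 2, as without vehicle replicate 3, no position of ETS2 was called at that time. Without vehicle replicate 1, calls remained in the rest. In each of these fits 11 of the first 30 nt had lower values at an unadjusted p under 0.05. The median log2 fold change of all tested positions at 2 min was -0.26, against -0.55 in the first 30 nt. With median-ratio scaling it was -0.04, and 3 of the 28 were then called lower and 5 higher.

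At nt 15, a U at chrXII position 460908, the 3 vehicle libraries had 1963, 1788 and 1712 RPM and the BMH-21 libraries 839, 224 and 404 RPM at 2 min. At 16 min they had 781, 693 and 1735 RPM for vehicle and 50.2, 33.2 and 57.9 RPM with BMH-21, which rest on 175 reads or fewer. The log2 fold change by limma was -2.10 ± 0.43 (SE) at 2 min, with an adjusted p of 0.0176 that lay between 0.00034 and 0.072 when 1 library was left out. It was -4.39 ± 0.40 (SE) at 16 min, with an adjusted p of 0.00147 and 0.0034 to 0.0088 with 1 library left out, the largest decrease called in ETS2 at that time. One base upstream, at nt 14, the values were 809, 851 and 807 RPM for vehicle and 699, 209 and 427 RPM for BMH-21 at 2 min (log2 fold change -1.05 ± 0.40 (SE), limma adjusted p = 0.094). After 16 min nt 14 fell from 380, 263 and 848 RPM to 35.3, 46.7 and 101.5 RPM (log2 fold change -2.97 ± 0.54 (SE), limma adjusted p = 0.016, up to 0.059 with 1 library left out). The ratio of nt 15 to nt 14 was 2.22 ± 0.18 with vehicle and 1.07 ± 0.13 with BMH-21 at 2 min, and 2.24 ± 0.33 and 0.90 ± 0.46 at 16 min (mean ± SD, n = 3 each). It was lower without overlap at both times, and with BMH-21 nt 15 was still the higher of the pair in 2 libraries at 2 min and in 1 at 16 min. At nt 13 the vehicle mean of 130 RPM at 16 min compared with 16.9 RPM with BMH-21 (log2 fold change -2.82 ± 0.44 (SE), limma adjusted p = 0.00853), whereas at 2 min the limma adjusted p was 0.146.

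The 3 positions called higher at 2 min were neighbours in the U-rich start. At nt 6, the A of that stretch, the values were 85.5, 71.6 and 65.7 RPM for vehicle and 149, 95.9 and 137 RPM with BMH-21. At nt 7 they were 39.4, 32.8 and 31.6 RPM for vehicle and 72.0, 45.6 and 62.3 RPM with BMH-21. At nt 8 they were 36.9, 36.9 and 33.6 RPM for vehicle and 85.1, 51.2 and 69.1 RPM with BMH-21. Every BMH-21 library lay above every vehicle library at these positions, by a log2 fold change of 0.75, 0.76 and 0.89 with an SE of 0.20 each (limma adjusted p = 0.0359, 0.0324 and 0.0212). The adjusted p reached 0.13, 0.12 and 0.084 with 1 library left out, and 2 of the 6 such fits called each of them. At 16 min the groups overlapped at all of these positions. The first position with reads, nt 3, held 151.3 RPM for vehicle and 173.5 RPM for BMH-21 at 2 min and 125.3 and 120.8 RPM at 16 min (group means), and with BMH-21 it was the highest position of ETS2 at 16 min.

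**Figure D3:**
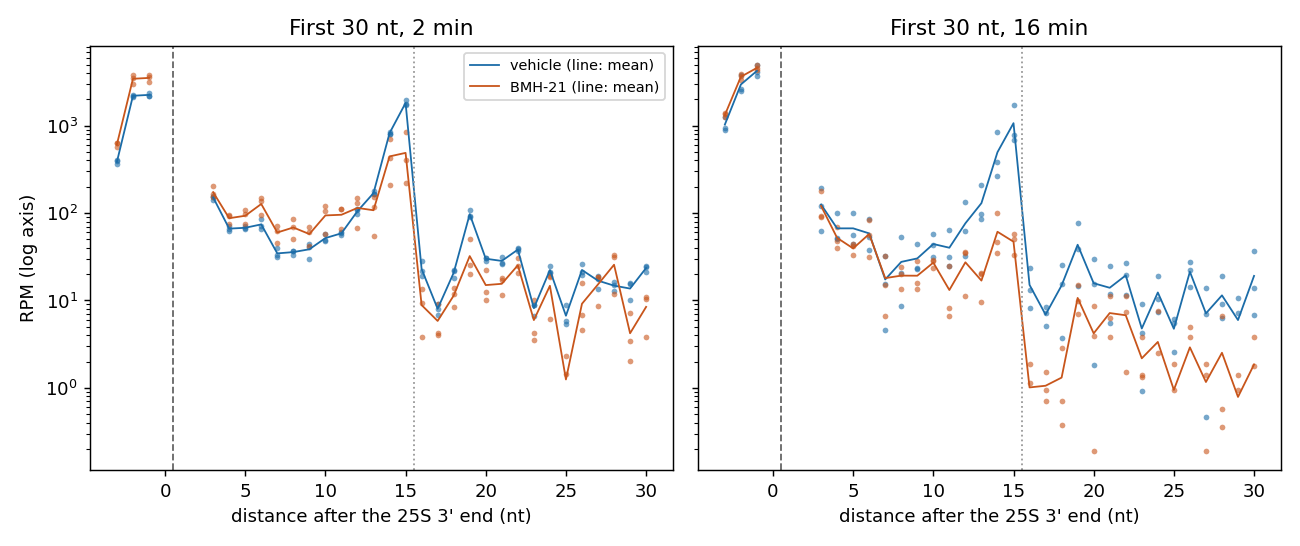
RPM on a log axis at the last bases of 25S (left of the dashed line) and the first 30 nt of ETS2 at 2 min (left) and 16 min (right). Points are libraries, lines are group means, positions without reads are not drawn, and the dotted line marks the start of the annotated Rnt1 fragment. With BMH-21 the mean at nt 15 is 489 RPM at 2 min and 47.1 RPM at 16 min, against 1821 and 1070 RPM with vehicle.

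The rest of ETS2 fell wherever a change was called. At 2 min 56 of the 99 positions that passed the filter were called lower by limma and 0 higher (0 had an unadjusted p below 0.05; edgeR called 22 lower and 0 higher, with 1 higher before adjustment at 0.05). Among all tested positions 23.4% were called lower and 3.56% higher at that time. At 16 min 30 of 85 were called lower and 0 higher (0 had an unadjusted p below 0.05, and edgeR called 8 lower and 0 higher). Among all tested at that time 11.7% were lower and 0.104% higher, so 0 higher in the rest at 16 min is near the share over the gene. The 82 and 96 positions under the filter are not in these counts. With no filter, 76 of 179 and 31 of 173 were called lower. Over the whole of ETS2, 26 of the 105 positions tested at both times were called lower at both, of which 3 lay in the first 30 nt, against 8.95% among all positions of the gene tested at both.

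Signal inside the Rnt1 fragment averaged 23.0 RPM per nt with vehicle and 12.6 with BMH-21 at 2 min, and 13.3 and 2.61 at 16 min. The means were thus 1.83-fold and 5.11-fold lower. From its end to the base before the T1 pair the means were 2.58-fold lower at 2 min and 7.01-fold lower at 16 min. Between T1 and the Reb1/Nsi1 site they were 2.44-fold and 4.00-fold lower, and over the 11 nt of that site 2.40-fold and 2.62-fold lower. Beyond the site, the 91 remaining nt held 130, 116 and 117 RPM in sum with vehicle and 49.4, 21.2 and 42.7 RPM with BMH-21 at 2 min. At 16 min they held 63.8, 104 and 97.6 RPM for vehicle and 24.7, 7.40 and 43.6 RPM with BMH-21. The lowest of these BMH-21 sums beyond the site rests on 39 reads. Over the site itself the BMH-21 libraries held 10 to 38 reads at 2 min and 11 to 33 at 16 min. Between T1 and the site they held 46 to 148 and 25 to 47 reads. No library of the treatments overlapped in any of these stretches at either time, and these stretches, too, carry no test.

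**Figure D4:**
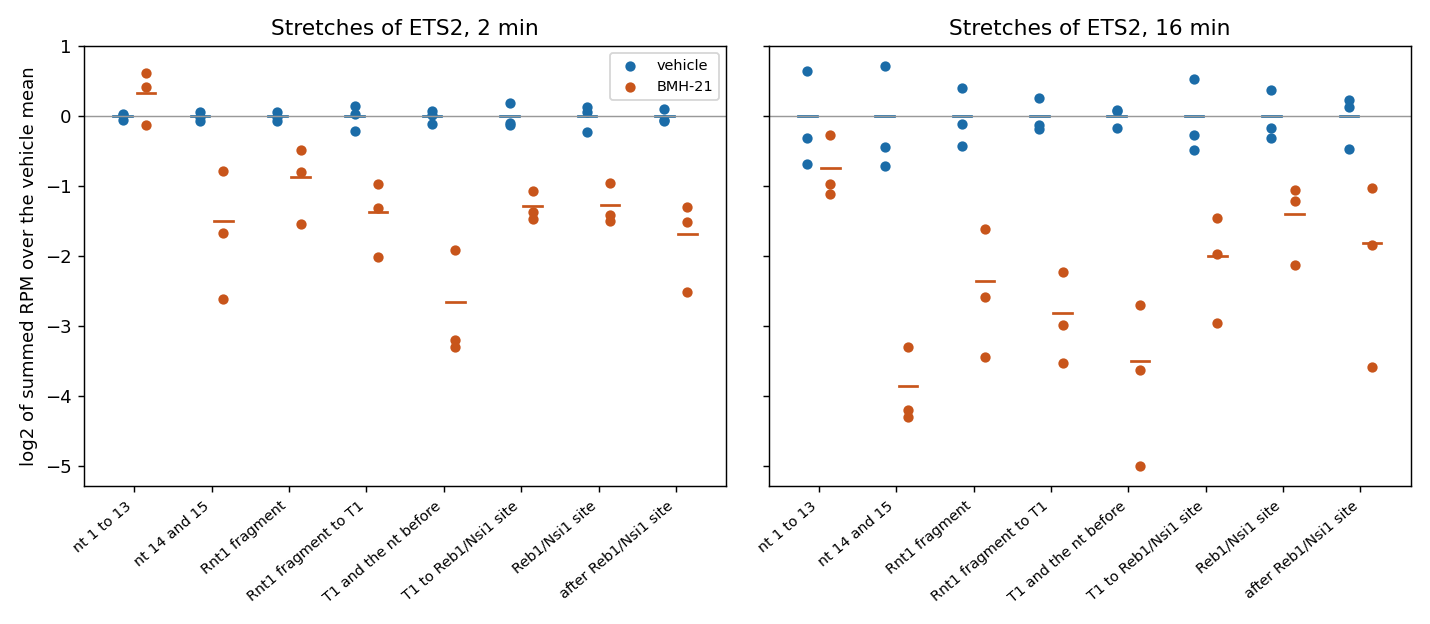
Summed RPM of 8 stretches of ETS2 in each library, as log2 over the vehicle mean of that time, at 2 min (left) and 16 min (right). Points are libraries and bars are the log2 of the group means. From nt 14 on, every BMH-21 point lies below every vehicle point, and nt 1 to 13 is the stretch where the treatments overlap at both times.

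Peaks in the rest were positions with a vehicle mean of at least 5 times the median of the 10 positions on each side and at least 10 reads in every vehicle library. The rule used vehicle values only, and the same values enter the comparison with BMH-21. Choosing positions that are high with vehicle favours a lower call, so calls at peaks are descriptions and not separate support for a decrease. By that rule 14 positions were peaks at 2 min and 7 at 16 min, and all 7 were among the 14. Without vehicle replicate 3, the shallowest vehicle library at 16 min, 15 positions met the rule at that time, a check added after the data were seen. An A stood at 9 of the 14 peaks, while A made up 33.1% of the rest. Of the 14 peaks, 7 lay beyond the Reb1/Nsi1 site, and of the 7 at 16 min 1 did.

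The peak at T1 was the highest of the rest in vehicle-treated cells at both times. At nt 92, the annotated T1 base at chrXII position 460831, it had 300, 273 and 310 RPM for vehicle and 75.9, 29.7 and 22.2 RPM with BMH-21 at 2 min. At 16 min it had 100, 134 and 108 RPM for vehicle and 18.4, 2.09 and 8.54 RPM with BMH-21. The lowest vehicle library held 715 reads there at 2 min and 140 at 16 min, and the BMH-21 libraries 26 to 232 and 9 to 52. The vehicle mean was 54.7 and 49.4 times the median of the neighbours. With BMH-21 nt 92 fell by a log2 fold change of -2.96 ± 0.41 (SE) at 2 min, the largest decrease called in ETS2 at that time (limma adjusted p = 0.00961, up to 0.053 with 1 library left out), and of -3.78 ± 0.63 (SE) at 16 min (limma adjusted p = 0.011). The base before it, nt 91, had a mean of 90.6 RPM for vehicle and 18.7 RPM with BMH-21 at 2 min and 37.6 and 3.799 RPM at 16 min. Lower values were called there at both times (limma adjusted p = 0.00972 and 0.00183, up to 0.054 at 2 min with 1 library left out).

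The T1 pair, nt 91 and 92, took 28.4%, 24.0% and 27.5% of the signal of the rest with vehicle and 14.3%, 11.05% and 7.61% with BMH-21 at 2 min. The pair took 16.7%, 19.7% and 15.3% at 16 min with vehicle and 14.97%, 6.65% and 5.44% with BMH-21. Its share within the rest was therefore lower in every BMH-21 library than in the vehicle libraries of that time, as a description without a test. At 16 min the gap between the nearest libraries was narrow. There BMH-21 replicate 1 (14.97%) rests on 66 reads of the pair and vehicle replicate 3 (15.3%) on 207.

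Upstream of T1, nt 33, in the AGNN match inside the Rnt1 fragment, had 130, 154 and 149 RPM for vehicle and 76.9, 59.6 and 95.6 RPM with BMH-21 at 2 min. After 16 min this position had 88.9, 44.5 and 79.9 RPM for vehicle and 13.4, 12.1 and 20.9 RPM with BMH-21. Lower values were called at both times (log2 fold change -0.91 ± 0.19 and -2.11 ± 0.33 (SE), limma adjusted p = 0.0188 and 0.00901). At nt 57, a G, the group means went from 45.4 to 19.99 RPM at 2 min and from 60.4 to 5.19 RPM at 16 min (limma adjusted p = 0.0256 and 0.00195). At nt 69, an A, they went from 34.5 to 13.01 RPM and from 49.7 to 2.86 RPM (limma adjusted p = 0.0142 and 0.000727). With 1 library left out, 3 of 6 fits called each of nt 33, 57 and 69 at 2 min and 6 of 6 at 16 min. The limma adjusted p at 2 min then reached 0.087, 0.0999 and 0.066. The 16-min values of nt 57 and 69 with BMH-21 rest on 4 to 16 reads per library. Downstream of T1, nt 98, an A, had means of 45.6 RPM for vehicle and 11.5 RPM with BMH-21 at 2 min (limma adjusted p = 0.00668, up to 0.052 with 1 library left out). At 16 min its means were 30.3 and 7.55 RPM, and the libraries overlapped (limma adjusted p = 0.206).

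Beyond the Reb1/Nsi1 site the clearest peak was nt 156, an A, with 14.7, 15.55 and 13.9 RPM for vehicle and 4.91, 1.45 and 5.12 RPM with BMH-21 at 2 min. After 16 min nt 156 had 12.9, 26.2 and 17.7 RPM for vehicle and 2.83, 2.47 and 7.59 RPM with BMH-21. It held 23 to 135 reads in the vehicle libraries and 5 to 15 in the BMH-21 libraries, and was called lower at both times (limma adjusted p = 0.0148 and 0.0278), although with 1 library left out only 3 of 6 fits called it at 2 min and 1 of 6 at 16 min (limma adjusted p up to 0.066 and 0.092). The other peaks past nt 98, at nt 111, 131, 133, 150, 179, 193 and 210, had vehicle means of 3.72 to 8.55 RPM at 2 min. Their BMH-21 libraries held 1 to 13 reads at that time. All of them were called lower at 2 min with a limma adjusted p of 0.0421 or less, a direction that their choice by vehicle values favours. A lower value was also called at nt 150 at 16 min (limma adjusted p = 0.0191, up to 0.061 with 1 library left out). With 1 library left out at 2 min, between 0 and 4 of 6 fits called each of these 7 peaks. The fewest were 0 at nt 210 and 1 at nt 193 (limma adjusted p up to 0.147 and 0.118).

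The same ratio of rest to first 30 nt was taken in ITS1 and ITS2, the internal spacers that also start at the 3′ end of a mature rRNA. In ITS1 the log2 ratio was 4.11 ± 0.07 with vehicle and 4.12 ± 0.12 with BMH-21 at 2 min, and 4.50 ± 0.35 and 4.22 ± 0.39 at 16 min (mean ± SD, n = 3 each). The ETS2 ratio changed by -0.48 relative to the ITS1 ratio of the same library over both times (p = 0.005, adjusted p = 0.00875, two-sided exact permutation test). This difference needs the first part to be long enough, since it was -0.14 with a first part of 15 nt (p = 0.365) and -0.23 with 20 nt (p = 0.075, same exact test). In ITS2 the ratio went from 0.61 ± 0.13 to -0.70 ± 0.08 at 2 min and from 0.15 ± 0.26 to 0.71 ± 0.20 at 16 min (mean ± SD, n = 3 each), in opposite directions and without overlap at either time. The ETS2 change relative to ITS2 was accordingly 0.73 at 2 min (p = 0.1) and -1.20 at 16 min (p = 0.2), and -0.24 over both times (p = 0.57, same exact test, adjusted p = 0.57).

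**Figure D5:**
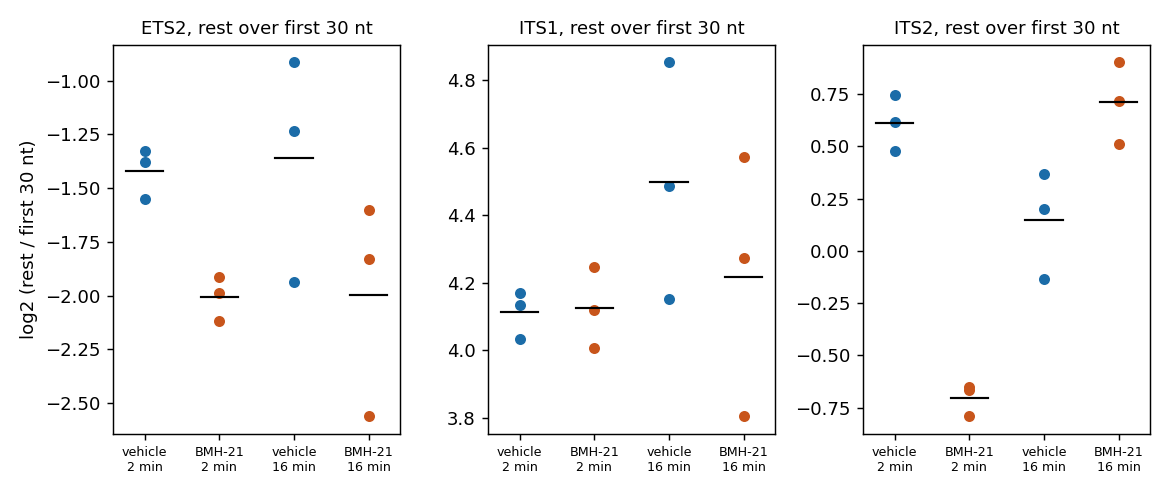
The log2 ratio of summed RPM in the rest of a spacer to that in its first 30 nt, for ETS2, ITS1 and ITS2, with a separate vertical axis for each spacer. Points are libraries and black bars the group means. The ETS2 ratio has no overlap between treatments at 2 min and overlaps at 16 min, and the ITS2 ratio is lower with BMH-21 at 2 min and higher at 16 min.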

How the data were processed

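The authors mapped 5′ read ends to assembly R64 and deposited RPM values per position of the 35S gene, each library scaled to its own sum. The submitters' processing notes name bedtools 2.26.0, SAMtools 1.6, STAR 2.7.1a, bcl2fastq 2.20.00, cutadapt 1.12 and R 4.0.2. A step that merges reads by molecular identifier is not stated, so reads may not be independent molecules. The deposited means, medians, coefficients of variation, intervals, ratios, differences and p-values were not used, 0 per-library columns were left out, and the untagged control was not analysed here.

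ETS2 covers 211 of the 6858 positions. When RPM were divided by the smallest RPM of the same library, 99.93% to 100% of positions held whole reads within 0.01 read. Positions with a mean of at least 1 RPM over the 6 libraries of a time were tested on log2(RPM + 1) with limma 3.58.1 (R 4.3.3), with edgeR 4.0.16 on the recovered reads as an alternative. Parts were compared between libraries by exact permutation tests in Python 3.11.15 with numpy 2.4.6 and pandas 2.3.3, on log2 values except for distances. The code was tested on simulated data. Alternatives covered pseudocount, filter, scaling, moderation, the length of the first part, peak limits, the replicate block and leaving out each library.

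Positions named are, in the first 30 nt, the 3 highest in each treatment and time, in each later stretch the highest with vehicle, every peak, every position called higher and the most lowered position called. The members, lists and tests were chosen with earlier results of these data known.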

Additional observations from a re-analysis of the deposited data

Results flagged for a closer look

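At 2 positions of the U-rich start, every BMH-21 library lay above every vehicle library at 2 min and below every vehicle library at 16 min. At nt 5 the log2 of the ratio of means was 0.46 at 2 min and -0.76 at 16 min. At nt 11 it was 0.70 at 2 min and -1.61 at 16 min. The gap between the nearest libraries of the treatments was narrow at both positions at 16 min. For nt 11 these were BMH-21 replicate 3 and vehicle replicate 2. They held 26 reads of 0.949 RPM each and 54 reads of 0.459 RPM each. The difference between the times was not tested at these positions, and limma called neither of them at either time.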

How the results depend on the processing

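Relative to the 4 spacers in place of the whole gene, the change of the first 30 nt turned to 0.43 at 2 min, 0.45 at 16 min and 0.44 over both times (log2), and that of the rest over both times was -0.17. The change of the 90% distance was 4 nt at 16 min and 1.17 nt over both times when 95% was used, and leaving out 1 library gave -14.2 to 3.33 nt at 16 min (above 0 only without BMH-21 replicate 2) and -24.8 to -16 nt over both times. The ETS2 ratio change minus that of ITS1 was 0.036 at 16 min and -0.14 over both times with a first part of 15 nt, and -0.23 over both times with 20 nt. The change of the ratio at 16 min minus that at 2 min, -0.05 (exact permutation test, p = 0.885), was 0.62 with a first part of 60 nt and -0.34 to 0.23 with 1 library left out, above 0 without vehicle replicate 1 of 2 min and without vehicle replicates 1 and 2 and BMH-21 replicate 2 of 16 min. The cause was not tested.

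Counts of called positions at 2 min were 11 lower and 3 higher in the first 30 nt and 56 lower in the rest. They became 3, 5 and 31 with median-ratio scaling, 0, 0 and 3 in the unmoderated linear model, and 5, 8 and 22 with edgeR. Scaled to the sum over ETS2 they were 2, 11 and 8, with 1 higher in the rest. A mean of at least 10 RPM left only 22 positions of the rest to test, of which 14 were lower, against 56 of 99. Leaving out 1 library gave 0 to 15, 0 to 9 and 0 to 72. At 16 min, 6 positions of the first 30 nt and 30 of the rest were lower, and 2 and 4 in the unmoderated model. Of the 85 tested in the rest, 14 were lower with a pseudocount of 0.1 and 8 with edgeR. A mean of at least 10 RPM left only 11 to test, of which 9 were lower. Scaling to ETS2 gave 9 higher in the first 30 nt and 8 higher in the rest. One library left out gave 4 to 9 and 21 to 36. Peaks at 2 min numbered 6 at 10 times the surroundings and 7 at 30 reads, and at 16 min 11 at 3 reads and 7 to 15 without 1 vehicle library, the highest without replicate 3.

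The labels number the replicates alike in every group. Correlations of deviations between same-numbered libraries were -0.36, -0.10 and -0.13 at 2 min and 0.09, 0.08 and 0.30 at 16 min. Between libraries of other numbers they ranged from -0.35 to 0.37 at 2 min and from -0.17 to 0.08 at 16 min. The 3 deviations from a group mean depend on each other, so these values cannot decide whether the numbers are a pairing. With the replicate block the ratio change over both times kept its value of -0.61 with p = 0.0625 (exact sign permutation). The block gave 3 lower, 0 higher and 31 lower in the rest at 2 min, and 13 lower in the first 30 nt at 16 min.

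Scaling to ETS2 turned 4 named values, to 2.13 and 1.94 at nt 6 and 8 at 16 min, and to 0.10 and 0.029 at nt 33 at 2 and 16 min. Of 627 named values under alternatives, 479 stayed on their side of the threshold in their direction, 137 lost their call and 7 gained one. In the rest at 16 min, 104 to 126 positions of each BMH-21 library had 0 reads, so changes at single positions there rest on few reads.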
